A study of Mus musculus with 6 samples.

Results

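The genes described here are 44 genes of the amino acid stress response driven by the transcription factor ATF4, chosen by symbol from an estimated count table of 54429 genes. All 44 symbols were found in the table. RNA-seq was performed on aortic endothelial cells (EC) of adult wild-type C57BL/6 mice, bought as primary cells and transduced with a Meis1-OE vector or a YFP-CTRL vector that carries the YFP reporter without Meis1. The 2 groups shared strain, age, genotype and handling, with 3 libraries each. After plating 100000 cells and a transduction of 48 h, cells positive for YFP, CD31 and VEC were sorted at 72 h and grown again to confluency, and 300 to 400 ng of RNA from 300000 cells was sequenced. The replicates are described as independent, but whether they came from different animals or cell lots is not given in the sources used here, so p-values measure the spread between these libraries. The table names its columns by group and a letter from A to C, which could not be matched to the replicate numbers of the labels, and letters are used below.

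ATF4 is the effector of the integrated stress response. Kinases that sense a shortage of amino acids, misfolded protein, double-stranded RNA or a lack of heme phosphorylate the translation factor eIF2alpha, which lowers general translation and raises that of the Atf4 mRNA. ATF4 then pairs with C/EBP proteins on composite elements near genes for amino acid synthesis, import and tRNA charging, and for stress regulators such as CHOP and TRIB3 that feed back on the pathway. In endothelium, serine synthesis and its one-carbon products are needed for nucleotide synthesis and vessel growth.

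To show the element itself, promoters were read from RefSeq on build GRCm38.p6, from 250 bases before to 50 bases after a transcript start. Of the 44 genes, 37 matched a promoter entry, with 43 promoters among them. The core of the C/EBP-ATF element, searched as TGATGNAA on both strands, was present in 16 of these 43 promoters (37.2%), 1 for each of 16 genes, and in 3.97% of all 32851 promoters of the same length. The exact letters TGATGCAA were present in 12 of the 43 (27.9%) and in 0.895% of all promoters. For the cyclic AMP element TGACGTCA, which cannot share its letters with TGATGNAA, the share was 2.33% (1 of 43, Ppp1r15a) against 1.79%. A match describes the letters of the window and no more. The genes were chosen as those of the ATF4 response, so the higher share is not separate support for ATF4 acting on them here. The 11 stretches below, of 38 bases each, lie wholly before the start, and are shown so that each gene's level, described further on, can be set beside its core. Each is written on the strand on which the core reads 5′ to 3′ and carries the core in capitals.
Asns, chr6:7693210-7693247, minus strand: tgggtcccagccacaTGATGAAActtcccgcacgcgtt
Atf3, chr1:191183421-191183458, plus strand: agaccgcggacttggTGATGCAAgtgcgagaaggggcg
Chac1, chr2:119351034-119351071, minus strand: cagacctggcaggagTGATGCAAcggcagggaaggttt
Fgf21, chr7:45615607-45615644, plus strand: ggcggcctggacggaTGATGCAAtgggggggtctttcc
Gars, chr6:55037956-55037993, minus strand: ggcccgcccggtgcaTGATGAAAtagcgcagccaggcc
Got1, chr19:43524685-43524722, plus strand: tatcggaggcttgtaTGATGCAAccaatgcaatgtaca
Jdp2, chr12:85599368-85599405, plus strand: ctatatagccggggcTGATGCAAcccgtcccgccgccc
Nupr1, chr7:126625558-126625595, plus strand: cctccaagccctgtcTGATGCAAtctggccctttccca
Pck2, chr14:55540148-55540185, minus strand: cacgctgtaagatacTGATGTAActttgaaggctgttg
Pycr1, chr11:120643829-120643866, minus strand: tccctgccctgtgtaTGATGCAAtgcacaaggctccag
Vldlr, chr19:27216805-27216842, minus strand: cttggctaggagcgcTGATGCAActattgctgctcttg

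Total counts ran from 34176592 to 47956569 per library. Meis1 was at a mean of 3220 ± 258 CPM (counts scaled to library size with TMM factors) with the Meis1-OE vector (SD, n = 3) and between 1.15 and 1.87 CPM in the 3 control libraries, so the labels held. The summed level of 10 endothelial markers lay between 3410 and 4340 CPM in Meis1-OE EC and between 4390 and 6030 CPM in YFP-CTRL EC. The sum covers changes in both directions. In edgeR 2 of the 10 were called higher and 1 lower with Meis1, where 4.14% and 2.73% of all genes tested were. Their log2 fold changes ran from -1.23 to 3.12, with a median of 0.08. Markers of macrophages and epithelium summed to at most 0.903 and 0.109 CPM in any library, and 4 of 7 and 4 of 5 of them had at most 3 counts in every library. Fibroblast markers summed to 33.4, 49.5 and 16.1 CPM in YFP-CTRL A, B and C and to at most 12.0 CPM in Meis1-OE EC. Almost all of this was Pdgfra, while Col1a1, Col1a2 and Col3a1 stayed at or below 0.286 CPM and Lum had no count. Smooth muscle markers, 6 in all, summed to 95.7, 135 and 240 CPM in YFP-CTRL A, B and C and to between 202 and 238 CPM in Meis1-OE EC. Smtn, at 95.1 to 234 CPM, made up nearly all of this, Acta2 was highest in YFP-CTRL C (19.9 CPM, at most 3.33 CPM elsewhere), and Myh11, Tagln, Cnn1 and Des stayed at or below 0.638 CPM. Of the 3 smooth muscle markers tested, Des was called higher with Meis1, at 0.397 to 0.518 CPM, where the lowest control had 0 CPM (edgeR adjusted p = 0.0150). Des had at most 24 counts in any library, so this call rests on low counts. Des also passed edgeR's filter on low counts only through the Meis1-OE libraries, where it was high. The call is thus not separate support for a rise. The part of any of these in the results was not tested. In bulk libraries, fewer cells that express a gene and less of its RNA per cell cannot be told apart.

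Most of the ATF4 response genes were high in YFP-CTRL A and B and lower in YFP-CTRL C and all 3 Meis1-OE libraries. Cbs and Fgf21, described further on, were exceptions, and Aars differed little. Of the 43 genes that passed edgeR's filter on low counts, 42 were above every Meis1-OE library in both YFP-CTRL A and B, which held for 4237 of all 16065 genes tested. In YFP-CTRL C, 22 of the 43 lay below all Meis1-OE libraries, 13 within their range and 8 above it. Of all 16065 genes tested, 5235 lay below, 5274 within and 5556 above. YFP-CTRL C was within 2-fold of the mean of the Meis1-OE libraries for 39 of the 43 (15087 of all genes). It was at least 2-fold below that mean for 4 (702 of all genes). Together the 44 genes took 0.949%, 0.976% and 0.360% of all counts in YFP-CTRL A, B and C, against 0.432%, 0.429% and 0.422% in the Meis1-OE libraries. The remaining gene, Fgf21, which encodes a stress hormone, had at most 2 counts in any library, within the floor of 3 counts, and was not tested. The median coefficient of variation among control libraries was 51.0% for the tested genes of the response and 20.7% for all genes tested. Among Meis1-OE libraries the medians were 5.29% and 8.68%.

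**Figure D1:**
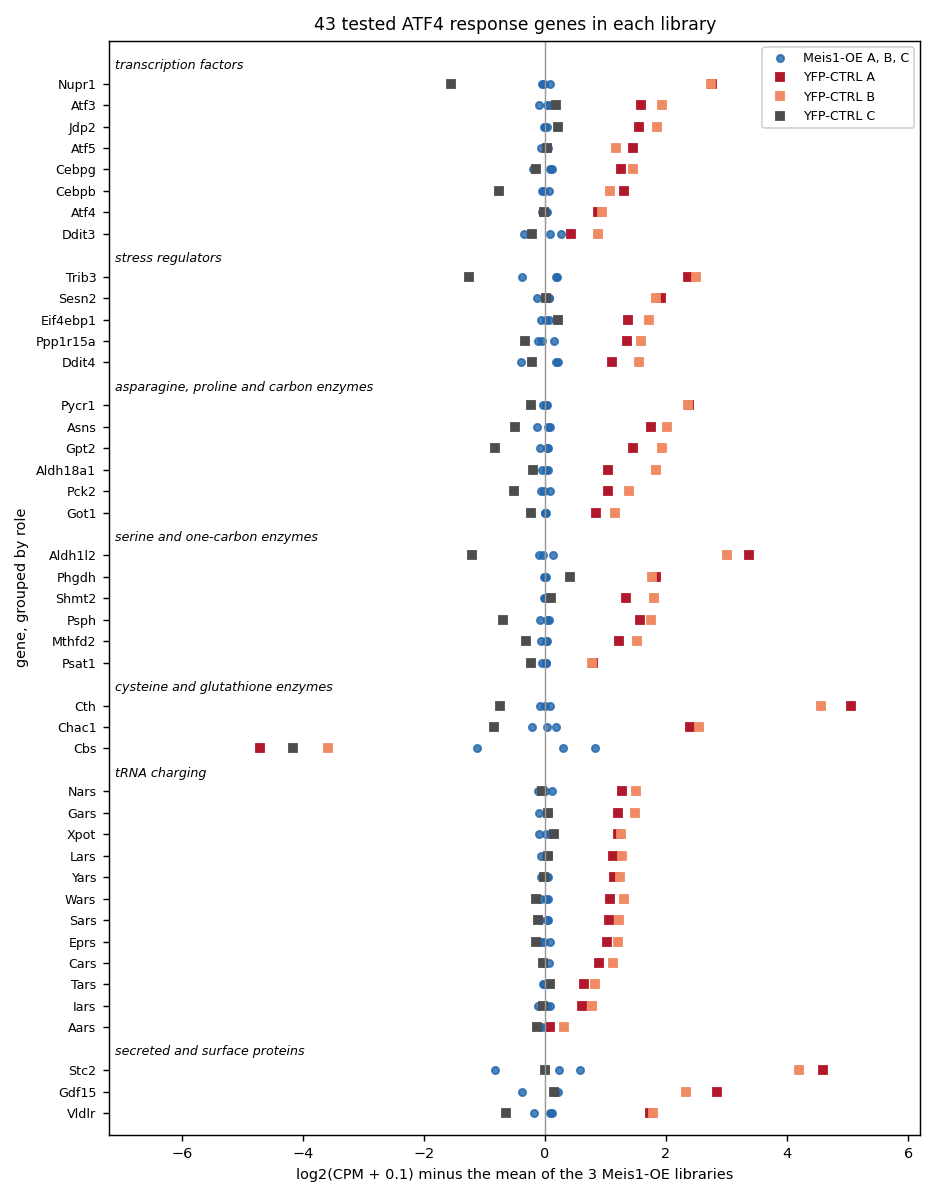
Level of each of the 43 tested ATF4 response genes in each library, as log2(CPM + 0.1) minus the mean of the 3 Meis1-OE libraries, with genes grouped by role. YFP-CTRL A and B sit to the right of the Meis1-OE libraries for 42 of the 43 genes and YFP-CTRL C sits near 0 for most, while Cbs has all 3 YFP-CTRL libraries on the left.

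The comparison of the vectors asks what a single transcription factor changes in adult EC. With all 6 libraries, 42 of the 43 tested genes had a negative log2 fold change (Meis1-OE over YFP-CTRL), and the median was -1.03, against 0.01 over all genes tested. In edgeR's quasi-likelihood test, with p-values adjusted by Benjamini-Hochberg over all genes tested and called under 0.05, 1 of the 43 was lower (2.33%, where 2.73% of all genes tested were lower), and 1 was higher (where 4.14% of all genes were). At an unadjusted p under 0.05, 33 of the 43 were lower, where 13.4% of all genes were. All Meis1-OE libraries lay below all controls for 8 of the 43, where 15.9% of all genes did so, and above them for 1, where 17.2% did. The gene called lower was Phgdh, which encodes the first enzyme of serine synthesis, and the gene called higher was Cbs, which encodes the enzyme that condenses serine with homocysteine.

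The number of calls depended on which libraries entered the fit. Without YFP-CTRL C, edgeR called 40 of the 43 genes lower with Meis1, where 15.2% of all 16443 genes tested in that fit were lower and 16.5% higher. The median log2 fold change of the 43 was then -1.40. YFP-CTRL A was above C for 42 of the 43 genes and YFP-CTRL B for 43, so this fit leaves out the control that was low for them. Its calls largely follow from that and are no separate support for a fall, here or for the single genes and groups below. Without YFP-CTRL A, where 2.63% of all genes were called lower, or without YFP-CTRL B, where 0.401% were, 0 of the 43 were called lower. At an unadjusted p under 0.05, 13 and 10 of them were, where 12.6% and 8.90% of all genes were. Leaving out Meis1-OE A, B or C also gave 0 calls of 43, where 0.417%, 0.0975% and 0.109% of all genes were called lower. The counts at an unadjusted p under 0.05 were then 11, 16 and 15, where 8.95%, 7.46% and 8.13% of all genes passed, and without Meis1-OE B the rise of Cbs missed the threshold too (adjusted p = 0.0543 from edgeR). DESeq2's Wald test, with all 6 libraries, called 18 of the 43 lower, where 6.13% of all genes were. Those 18 were Atf3, Atf5, Cebpg, Jdp2, Sesn2, Eif4ebp1, Asns, Pycr1, Phgdh, Shmt2, Cth, Gars, Lars, Nars, Yars, Xpot, Stc2 and Gdf15.

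**Figure D2:**
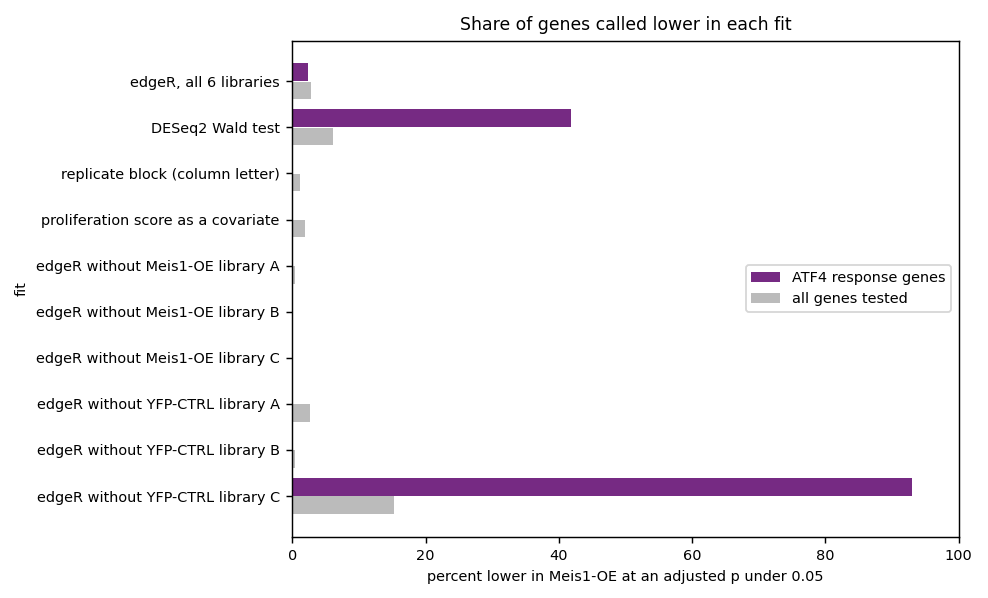
Percent of the ATF4 response genes tested (purple) and of all genes tested (grey) called lower with Meis1 (adjusted p under 0.05), for each fit. The purple bar is at 2.33% with edgeR on all 6 libraries covers 18 of 43 genes with DESeq2 and 40 of 43 without YFP-CTRL C, while the fits without another library, with a replicate block or with the proliferation score have no purple bar.

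Of the 8 transcription factors, 0 passed in edgeR with all libraries (6 were lower at an unadjusted p under 0.05, and 4 in DESeq2), and 7 were lower without YFP-CTRL C. Atf4 itself had 351, 369 and 189 CPM in YFP-CTRL A, B and C, and 185, 193 and 196 CPM in Meis1-OE A, B and C. The third control thus lay inside the range of the Meis1-OE libraries, and the groups overlapped. It differed by -0.66 on the log2 scale (standard error 0.24, edgeR adjusted p = 0.139), and by -0.92 without YFP-CTRL C (adjusted p = 0.000977 from edgeR). Atf5, a bZIP factor under the same translational control, measured 536, 438 and 199 CPM in the controls and 187, 201 and 197 CPM in Meis1-OE EC, the same split of libraries. The stress-induced repressor Atf3 stood at 64.4, 81.9 and 24.3 CPM in the controls and between 20.0 and 22.4 CPM with Meis1. Here the groups did not overlap, although YFP-CTRL C was close to the Meis1-OE libraries (log2 fold change -1.41, standard error 0.39, adjusted p = 0.0767 from edgeR). Jdp2, another bZIP repressor, read 80.8, 98.8 and 31.8 CPM in the controls and 27.0 to 28.0 CPM in Meis1-OE EC, again without overlap (adjusted p = 0.0723 from edgeR).

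The widest gap among the factors was that of Nupr1, a small stress-induced chromatin protein, at 159, 158 and 7.90 CPM in the controls. It was at 24.7, 23.1 and 22.6 CPM in the Meis1-OE libraries, so YFP-CTRL C was the lowest of all libraries. Cebpb, which drives inflammatory and metabolic genes, had 194, 165 and 46.2 CPM in the controls and 75.9 to 82.0 CPM with Meis1, and was lower in the fit without YFP-CTRL C (log2 fold change -1.20, adjusted p = 0.000685 from edgeR). For Cebpg, whose product dimerizes with ATF4, the controls had 116, 133 and 43.8 CPM and the Meis1-OE libraries 42.3 to 52.7 CPM. Ddit3, which encodes CHOP, differed least, at 26.9, 36.6 and 17.1 CPM against 15.6 to 24.1 CPM. It did not pass even without YFP-CTRL C (log2 fold change -0.67, adjusted p = 0.0546 from edgeR).

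All 5 stress regulators were lower without YFP-CTRL C, by log2 fold changes from -2.43 to -1.34, and 0 of 5 passed in edgeR with all libraries (4 were lower at an unadjusted p under 0.05, and 2 in DESeq2). Trib3, a pseudokinase that binds ATF4 and CHOP, had 175, 192 and 14.1 CPM in the controls and 26.2, 38.3 and 38.9 CPM in the Meis1-OE libraries. Its YFP-CTRL C value was below every Meis1-OE value, while the other controls were more than 4-fold above them. Sesn2, a leucine sensor that restrains mTORC1, had 141, 133 and 37.5 CPM against 33.9 to 39.1 CPM with Meis1. Ddit4, another restraint on mTORC1, had 48.9, 66.9 and 19.7 CPM against 17.2 to 26.5 CPM. In both genes YFP-CTRL C lay inside the Meis1-OE range. Eif4ebp1, an inhibitor of cap-dependent translation, kept the groups apart, with 321, 408 and 144 CPM against 119 to 130 CPM (log2 fold change -1.22, standard error 0.34, adjusted p = 0.0746 from edgeR). Ppp1r15a, whose product GADD34 brings a phosphatase to eIF2alpha, had 292, 342 and 90.6 CPM against 106 to 127 CPM.

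Serine and one-carbon enzymes held the only called fall. Phgdh had 551, 526 and 207 CPM in YFP-CTRL A, B and C, and 156, 153 and 156 CPM in the Meis1-OE libraries. Every control was above every Meis1-OE library, and YFP-CTRL C was the nearest to them. Phgdh differed by -1.46 on the log2 scale (standard error 0.34, edgeR adjusted p = 0.0479). It stayed between -1.48 and -1.26 in every fit except those without YFP-CTRL C (-1.81, edgeR adjusted p = 0.000224) and with a covariate for proliferation, described further on (-0.56, edgeR adjusted p = 0.198). Its adjusted p rose to 0.201 without Meis1-OE B, 0.188 without C and 0.156 without A, and to 0.165 and 0.0984 without YFP-CTRL B and A, from edgeR. Psat1 and Psph, the next enzymes of the path, did not share that separation. Psat1 had 368, 367 and 182 CPM in the controls and 206 to 217 CPM with Meis1, and Psph had 102, 115 and 21.2 CPM against 32.2 to 35.7 CPM, with YFP-CTRL C the lowest library in both.

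In the mitochondrial arm, Shmt2, which splits serine to glycine and a one-carbon unit, had 473, 646 and 201 CPM in the controls and 184 to 190 CPM in Meis1-OE EC, without overlap (adjusted p = 0.0907 from edgeR). Mthfd2, the dehydrogenase that follows it, had 173, 212 and 59.3 CPM against 70.8 to 75.6 CPM. Aldh1l2, which oxidizes the formyl unit, had 233, 182 and 9.79 CPM in the controls and 21.0, 24.9 and 22.1 CPM with Meis1, so that the controls lay on both sides of the Meis1-OE libraries. All 6 genes of this group were lower without YFP-CTRL C, with adjusted p-values from 0.000179 to 0.00145 from edgeR.

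**Figure D3:**
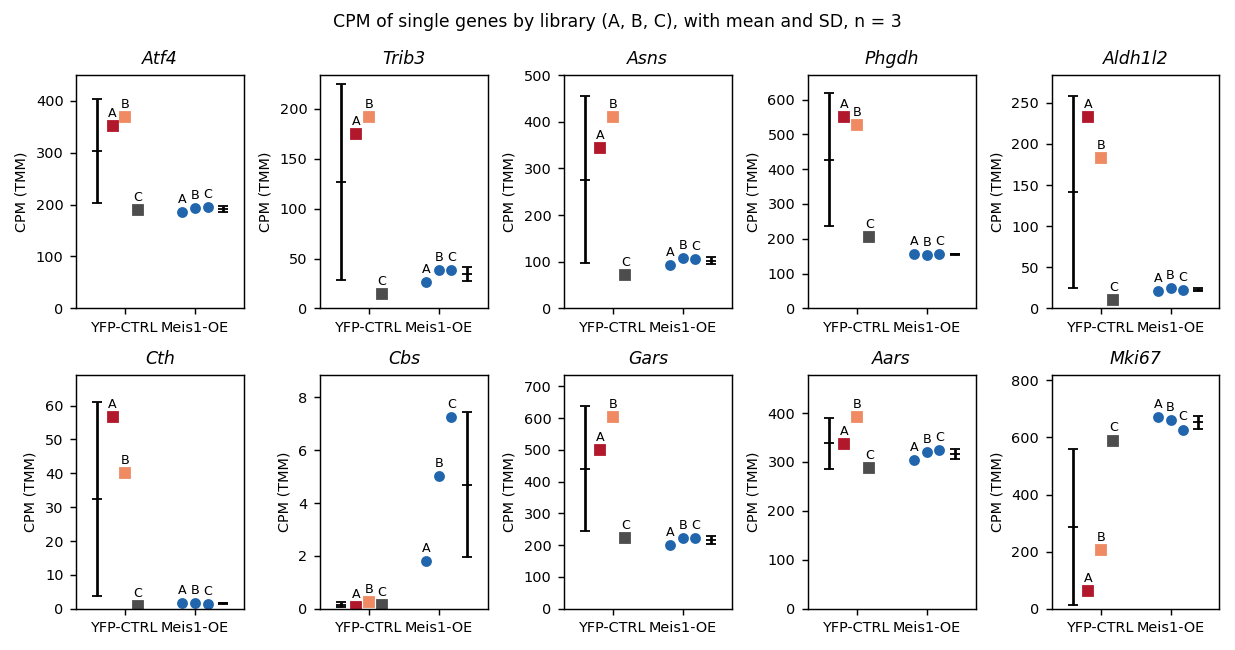
CPM of 9 genes of the response and of the proliferation marker Mki67 in each library, lettered A to C, with the mean and SD of each group (n = 3). For Atf4, Trib3, Asns, Phgdh, Aldh1l2, Cth and Gars, YFP-CTRL A and B stand above the other 4 libraries, whereas Cbs is higher in the Meis1-OE libraries, Aars differs little, and Mki67 is lowest in YFP-CTRL A.

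Enzymes of asparagine, proline and carbon metabolism gave 0 calls of 6 in edgeR with all libraries (3 were lower at an unadjusted p under 0.05, and 2 in DESeq2), and all 6 were lower without YFP-CTRL C. Asns, asparagine synthetase, had 344, 411 and 72.5 CPM in the controls and 93.4, 108 and 105 CPM with Meis1, so YFP-CTRL C was the lowest library. Asns differed by a log2 fold change of -1.43 (standard error 0.54, edgeR adjusted p = 0.151), and by -1.90 without YFP-CTRL C (adjusted p = 0.000452 from edgeR). Pycr1, the last step of proline synthesis, had 52.5, 51.9 and 8.52 CPM against 9.80 to 10.2 CPM. Aldh18a1, the first step, was the one gene of the response other than Cbs in which YFP-CTRL A and B stood over 1.5-fold apart, with 203, 355 and 86.4 CPM against 95.6 to 102 CPM. Gpt2, Got1 and Pck2, which link amino acids to pyruvate, aspartate and phosphoenolpyruvate, had log2 fold changes of -1.25, -0.70 and -0.84. In these 3 as well YFP-CTRL C was below every Meis1-OE library.

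The 2 enzymes of transsulfuration, which makes cysteine from homocysteine, differed in sign, and of them Cbs passed. Cth, cystathionine gamma-lyase, had 1923, 1630 and 42 counts in YFP-CTRL A, B and C, and 78, 73 and 70 counts in the Meis1-OE libraries. This is 56.6, 39.9 and 0.924 CPM against 1.51 to 1.71 CPM, with YFP-CTRL C below all Meis1-OE libraries. The fitted log2 fold change of -4.33 had a standard error of 1.18 and an adjusted p of 0.0729 from edgeR. Without YFP-CTRL C it was -4.91 (adjusted p = 0.000158 from edgeR). Cbs, which makes the substrate of Cth, had 2, 10 and 6 counts in the controls and 82, 228 and 336 counts in Meis1-OE A, B and C.

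Cbs was the single gene of the response with every Meis1-OE library above every control, and its 3 control libraries were all low. As CPM of the library total, without TMM factors, it was 0.0585, 0.224 and 0.125 in the controls (95% Wilson intervals 0.0161 to 0.213, 0.122 to 0.413 and 0.0573 to 0.273), and 1.98, 5.18 and 7.38 in the Meis1-OE libraries, whose intervals did not overlap those of the controls. These intervals cover counting error only. Cbs rose by a log2 fold change of 4.96 (standard error 0.67, edgeR adjusted p = 0.00984, higher in 3 of 3 Meis1-OE libraries). With its low control counts, Cbs passed the filter on low counts only through the Meis1-OE libraries, where it was high. The call is thus not separate support for the rise, and Cbs was not tested when every library needed at least 10 counts. The estimate was 4.66 with the covariate for proliferation, where it missed the threshold (edgeR adjusted p = 0.0597), and 4.97 with DESeq2 (adjusted p = 2.87e-13). The Meis1-OE libraries differed among themselves by 4.04-fold. Chac1, which degrades glutathione, followed the other pattern, with 212, 236 and 22.5 CPM in the controls and 34.7 to 45.7 CPM with Meis1 (adjusted p = 0.144 from edgeR).

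The genes of tRNA charging were 11 cytosolic synthetases, which load tRNAs with their amino acids, and Xpot, which exports tRNA from the nucleus. With all libraries 0 of the 12 passed in edgeR (11 were lower at an unadjusted p under 0.05, and 5 in DESeq2), with log2 fold changes from -1.05 to -0.10. Without YFP-CTRL C, 11 of the 12 were lower, from -1.41 for the asparaginyl enzyme Nars to -0.71 for the isoleucyl enzyme Iars. Gars, the glycyl enzyme, had 498, 603 and 222 CPM in the controls and 202, 222 and 223 CPM with Meis1, so YFP-CTRL C sat inside the Meis1-OE range. The separated genes were Lars, Tars and Xpot, in which YFP-CTRL C was only just above the Meis1-OE libraries (113 CPM against at most 112 for Lars, 106 against 103 for Tars and 153 against 147 for Xpot). Aars, the alanyl enzyme, kept the common order of libraries but differed least of the 12. It had 336, 392 and 288 CPM in the controls and 304, 320 and 324 CPM in Meis1-OE EC, a log2 fold change of -0.10 (standard error 0.13, adjusted p = 0.674 from edgeR), and -0.22 without YFP-CTRL C (adjusted p = 0.167 from edgeR). On library totals its log2 fold change was 0.04 and without YFP-CTRL B it was 0.03. For the enzymes Eprs, Sars, Wars, Yars and Cars, which charge glutamate and proline, serine, tryptophan, tyrosine and cysteine, log2 fold changes lay at -0.80, -0.83, -0.87, -0.89 and -0.74 (edgeR adjusted p from 0.119 to 0.162).

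Among secreted and surface proteins, Stc2, a secreted glycoprotein, had 204, 186 and 7 counts in the controls and 2, 9 and 13 counts with Meis1. Gdf15, a stress cytokine, had 168, 140 and 31 counts against 33, 20 and 32. In both, YFP-CTRL C was within the Meis1-OE range and YFP-CTRL A and B were at least 5-fold above C. Vldlr, a lipoprotein receptor, had 241, 250 and 46.2 CPM in the controls and 63.2 to 77.6 CPM with Meis1. With all libraries 0 of the 3 tested genes passed in edgeR (adjusted p from 0.0761 to 0.183), all 3 were lower at an unadjusted p under 0.05 and 2 in DESeq2, and without YFP-CTRL C all 3 were lower (0.000395 to 0.00176).

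**Figure D4:**
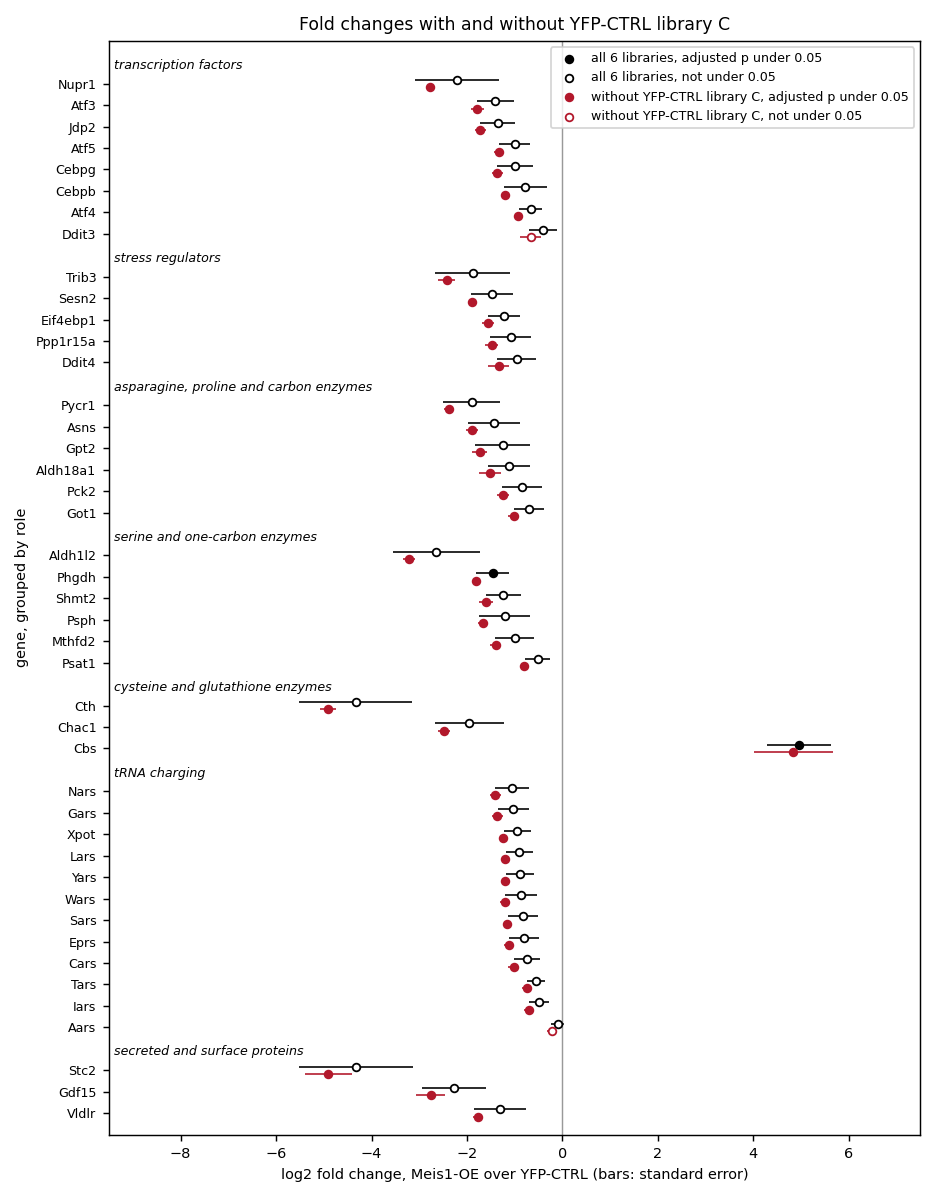
Log2 fold change (Meis1-OE over YFP-CTRL) with its standard error for each tested gene, with all 6 libraries (black) and without YFP-CTRL C (red). The red fit leaves out the control that was the lowest of the controls for every gene but Cbs. Filled points have an adjusted p under 0.05 from edgeR: 2 black points, Phgdh and Cbs, and 41 red points, of which only Cbs lies above 0.

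The spread among the controls was then described on its own, without a test, since each library is a single one. YFP-CTRL A was at least 2-fold above C for 36 of the 43 genes (6.42% of all genes tested), and YFP-CTRL B for 38 (3.26%). Both held for 36 of the 43, where 2.22% of all genes did so, and 0 were at least 2-fold lower in A or B than in C. The median log2 ratio was 1.34 for A over C and 1.63 for B over C, against 0.00 and -0.04 over all genes tested. A and B differed little, with 41 of the 43 genes (95.3%, against 76.5% of all genes) within 1.5-fold. The order B, then A, then C held for 31 of the 43 (2165 of all 16065 genes tested). The order A, then B, then C held for 11 (3427 of all genes).

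The size of the gap depended on the gene. Cth had the second largest ratio of all 16065 genes in both comparisons, at 61.2-fold for A over C and 43.2-fold for B over C. Stc2 stood at 39.0-fold and 29.6-fold, Aldh1l2 at 23.8-fold and 18.6-fold and Nupr1 at 20.2-fold and 20.0-fold. Trib3 and Chac1 followed at 12.4-fold and 9.43-fold for A over C. In all, 9 of the 43 were among the 100 genes with the largest ratio in both comparisons, which 53 genes were. The 11 synthetases had smaller gaps, from 1.17-fold to 2.52-fold for A over C and from 1.36-fold to 2.94-fold for B over C. Atf4 mRNA differed by 1.86-fold and 1.95-fold.

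Proliferation differed among the same libraries, in another order. Mki67, a marker of cycling cells, was at 63.8, 205 and 589 CPM in YFP-CTRL A, B and C and at 628 to 672 CPM with Meis1. The mean log2(CPM + 1) of 15 proliferation genes was 4.29, 5.22 and 6.50 in the controls and 6.50 to 6.56 in the Meis1-OE libraries. YFP-CTRL C was thus close to the Meis1-OE libraries in proliferation. It was within 2-fold of their mean for 39 of the 43 genes of the ATF4 response, and for 15087 of all 16065 genes tested. YFP-CTRL B was between A and C for proliferation but above both for 32 of the 43 genes of the ATF4 response, where 3940 of all 16065 genes tested were. When edgeR was given this score as a covariate, 0 of the 43 genes were called lower (1 at an unadjusted p under 0.05, and 1 higher), where 1.88% of all genes were, and their median log2 fold change was -0.10. The score was high in all 3 Meis1-OE libraries and in 1 of 3 controls, and its part in the difference between the groups cannot be told apart from that of the vector.

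**Figure D5:**
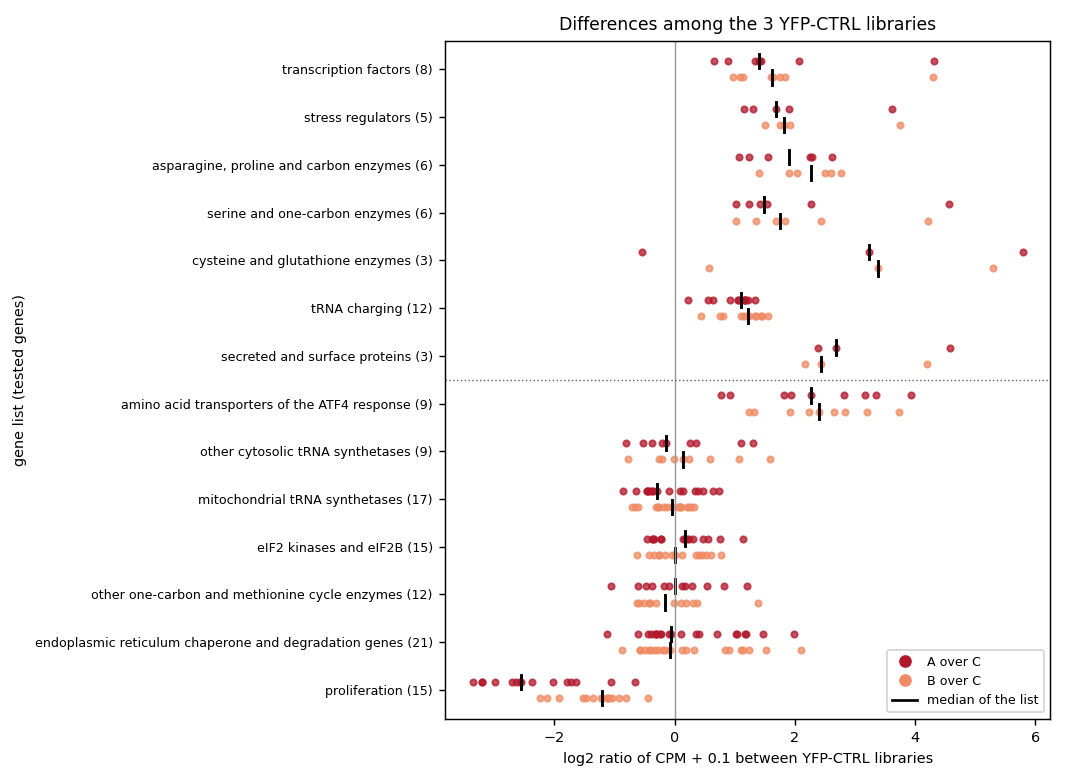
Log2 ratio of CPM + 0.1 between single control libraries, A over C (dark red) and B over C (orange), for each tested gene of the 7 groups of ATF4 response genes (above the dotted line) and of 7 other lists (below it), with the median of each list in black. The ATF4 groups and the amino acid transporters lie to the right of 0 except for Cbs in A over C, proliferation genes lie to the left, and the other lists straddle it.

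Other genes near the pathway, from lists set with earlier results of these data known, shared the pattern in part. All 9 amino acid transporters of the response had a negative log2 fold change (median -1.81), and 1 passed with all libraries. That was Slc1a5, a glutamine carrier, with 110, 145 and 57.8 CPM in the controls and 28.4 to 31.0 CPM with Meis1 (log2 fold change -1.81, standard error 0.31, adjusted p = 0.0188 from edgeR). The call ended without YFP-CTRL B (adjusted p = 0.0659), without any one Meis1-OE library (0.0848 to 0.111) and with the covariate for proliferation (0.0724), all from edgeR. Both YFP-CTRL A and B were at least 2-fold above C for 7 of the 9 transporters. All 9 were lower in the fit without YFP-CTRL C, where 15.2% of all genes were. Of 9 cytosolic synthetases outside the 44 genes, 0 passed in edgeR with all libraries (3 were lower at an unadjusted p under 0.05, and 3 in DESeq2), and 2 were at least 2-fold higher in both A and B than in C. Those 2, named after their values were seen, were Rars, the arginyl enzyme, and Farsb, a subunit of the phenylalanyl enzyme.

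The unfolded protein response of the endoplasmic reticulum shares the PERK kinase with the ATF4 pathway. Of 21 genes for its chaperones, sensors and degradation factors, 0 passed in edgeR with all libraries (4 were lower at an unadjusted p under 0.05, and 1 in DESeq2), with a median log2 fold change of -0.04. Both YFP-CTRL A and B exceeded C by at least 2-fold for 5 of them, which were Hspa5, Herpud1, Sel1l, Xbp1 and Ern1, named after their values were seen. Herpud1, a degradation factor, was at 3.97-fold and 4.28-fold over C, and Hspa5, the chaperone BiP, at 2.25-fold and 2.21-fold. The chaperones and folding enzymes Calr, Canx, Pdia3, Pdia4, Pdia6 and Hsp90b1, also named after their values were seen, were between 0.674-fold and 0.964-fold of C in both. Of the 21 genes, 7 were lower and 3 higher in Meis1-OE EC without YFP-CTRL C. Of all genes tested in that fit, 15.2% were lower and 16.5% higher.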

How the data were processed

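RNA-seq of 6 libraries was analysed, 3 with a Meis1-OE and 3 with a YFP-CTRL vector. RNA was ribodepleted. The deposited values are the authors' estimated counts for each gene symbol, not normalized. The submitters' processing notes name build mm10, and the aligner, counting tool and annotation are not given in the sources used here. Strand use is not stated. Deposited counts were rounded to whole numbers; 28 of the 44 genes had a fractional count in some library, and genes that share reads with a related or overlapping gene are less certain. Columns were assigned to groups by name.

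Tests used edgeR 4.0.16 in R 4.3.3 (filterByExpr, TMM, quasi-likelihood test, 16065 genes tested), with Benjamini-Hochberg adjustment over all genes and a threshold of 0.05. Standard errors were derived from the F statistic. DESeq2 1.42.0 was an alternative. Log2 ratios, ranks and counts of 2-fold differences between single libraries used CPM + 0.1, and printed folds used plain CPM. No levels were compared between genes. Every one of the 44 genes was eligible to be named, and the rule for other lists was to name those past the threshold. Some past no threshold were named too, as stated where they were chosen after their values were seen. Cell type markers, Mki67, Eif2ak3 and Eif2ak4 were also named. The 44 genes and all lists were chosen with earlier results of these data known. The test was run on simulated counts with known changes first. Plots used Python 3.11.15 with matplotlib 3.10.9. Alternatives were other scalings, filters, tests, covariates and libraries left out. Eif4ebp1, Aldh1l2, Cth, Cars, Lars, Nars and Wars had no promoter entry. One further promoter stretch is not reported here.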

Additional observations from a re-analysis of the deposited data

How the results depend on the processing

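With 43 genes of the response tested, the count called lower was 1 with all libraries and edgeR. It was 3 without a filter on low counts (Phgdh, Cth and Stc2), 18 with DESeq2 and 10 at an adjusted p under 0.1. It was 0 on library totals, with at least 10 counts in every library, with a replicate block on the column letter, with the proliferation score as a covariate, and with Gm26917 and Meis1 kept out of the library sizes, an alternative chosen after seeing the data. Over the libraries left out in turn it ran from 0 to 40. The count called higher was 1 and became 0 with at least 10 counts in every library, where Cbs was not tested, and with the covariate, and ran from 0 to 1 over the libraries left out. Over all genes tested, 665 were higher and 438 lower. Library totals gave 1048 and 179, DESeq2 1124 and 1115, and an adjusted p under 0.1 gave 1138 and 1073. The covariate gave 381 higher genes, and the replicate block 189 lower ones. Over the libraries left out, higher genes ran from 115 to 2717 and lower genes from 16 to 2498. The cause of these shifts was not tested.

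With the proliferation score as a covariate, 15 genes changed sign, with log2 fold changes of 0.0166 for Ddit3, 0.58 for Cebpb, 0.86 for Nupr1, 0.66 for Trib3, 0.0385 for Ppp1r15a, 0.10 for Asns, 0.29 for Gpt2, 0.18 for Pck2, 0.11 for Psat1, 0.31 for Psph, 0.0143 for Mthfd2, 0.62 for Aldh1l2, 0.31 for Chac1, 0.0418 for Aars and 0.31 for Vldlr, each with an adjusted p of at least 0.292 from edgeR. Aars also changed sign on library totals (0.0434), and ran from -0.217 to 0.0271 over the libraries left out. On library totals the median log2 fold change of all genes was 0.15 and that of the 43 genes -0.89. Among the controls, 1 gene was at least 2-fold lower in A than in B and 2 at 1.5-fold, and the counts of A or B over C kept within 1.5 times under other scalings and at 1.5-fold.

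The replicate block used letters that nothing states to mark a shared batch. Deviations of same-letter libraries from their group means correlated at 0.245, 0.190 and 0.0809 for A, B and C over 16065 genes, and Meis1-OE C correlated better with YFP-CTRL B (0.249) than with C. With the block, Phgdh had an adjusted p of 0.0781 and Cbs of 0.00712 from edgeR. With 3 libraries a group, the smallest two-sided permutation p is 0.1, and no single gene was tested that way.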

Other observations

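Upstream of ATF4, the kinases and factors of eIF2 were measured as a list of 15 genes, all of them tested. Eif2ak2, which encodes the double-stranded RNA sensor PKR, had 20.3, 20.9 and 28.0 CPM in YFP-CTRL A, B and C, and 37.2, 50.5 and 43.7 CPM in Meis1-OE A, B and C. All Meis1-OE libraries were above all controls, with a log2 fold change of 0.92 (standard error 0.18, adjusted p = 0.0287 from edgeR). The call was lost without YFP-CTRL B (adjusted p = 0.112), without any one Meis1-OE library (0.0588 to 0.155) and with the proliferation covariate (0.0883), all from edgeR. Eif2b2, a subunit of the exchange factor of eIF2, had 103, 119 and 83.2 CPM in the controls and 62.9 to 67.3 CPM with Meis1 (log2 fold change -0.66, adjusted p = 0.0435 from edgeR). It missed the threshold without YFP-CTRL A (adjusted p = 0.0756) or B (0.124), without any one Meis1-OE library (0.151 to 0.212), with the replicate block (0.0860) and with the covariate (0.156), all from edgeR. For Eif2ak3, the kinase PERK, the log2 fold change was 0.13 (edgeR adjusted p = 0.578), and for Eif2ak4, the kinase GCN2, it was -0.12 (edgeR adjusted p = 0.540). For 0 of the 15 were both YFP-CTRL A and B at least 2-fold above C.

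Of 17 mitochondrial tRNA synthetases, 1 passed with all libraries. Mars2, the methionyl enzyme, had 46.1, 54.3 and 43.4 CPM in the controls and 25.3 to 29.9 CPM with Meis1 (log2 fold change -0.79, adjusted p = 0.0194 from edgeR). This call ended without YFP-CTRL B (adjusted p = 0.0626), without any one Meis1-OE library (0.0848 to 0.127) and with the covariate (0.0502), all from edgeR. None of the 17 was at least 2-fold above YFP-CTRL C in both A and B (0 of 17). Of 12 tested genes for other one-carbon and methionine cycle enzymes, 0 passed in edgeR with all libraries (2 were higher and 4 lower at an unadjusted p under 0.05, and 2 lower in DESeq2). Mthfd1l, the mitochondrial enzyme that releases formate, was the 1 gene of this list at least 2-fold above YFP-CTRL C in both A and B (2.30-fold and 2.62-fold), and was named after its values were seen.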
